A study of Mus musculus with 10 samples.

Results

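The expression of 10 genes of the heat shock response and of endoplasmic reticulum (ER) stress was described in mouse lung. They were taken by gene symbol from a list of the cytosolic chaperone genes Hspa1a, Hspa1b, Hsph1, Dnajb1 and Hsp90aa1, the ER chaperone genes Hspa5 and Hsp90b1, and the stress transcription factor genes Xbp1, Ddit3 and Atf4. All 10 were found among the 24394 gene symbols of the table, with 15 of its 34943 RefSeq transcript rows. Lung RNA was sequenced from 8-week-old female BALB/c mice, wild type in every group, in paired reads of 76 bases. Saline mice (n = 3) were controls. OVA mice (n = 3) were sensitised with ovalbumin and alum, challenged with intranasal ovalbumin to give allergic airway inflammation, and fed vehicle. Herb mice (n = 4) had the same ovalbumin protocol and were given by mouth an extract of Descurainia sophia seeds made with ethanol. The model is an acute one in a single inbred strain. Values are FPKM, the fragments of a transcript per kilobase of its length and of all mapped fragments, scaled to a common total, so levels of different genes can be set beside each other.

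Chaperones bind unfolded protein chains and help them to fold. In the cytosol, heat or other protein damage frees the transcription factor HSF1, which binds heat shock elements in front of HSP70, HSP40, HSP90 and HSP110 genes and raises their transcription. In the ER, unfolded protein is sensed by IRE1 (encoded by Ern1), PERK (Eif2ak3) and ATF6, and this unfolded protein response acts through spliced XBP1, ATF4 and the cleaved part of ATF6. The response raises ER chaperones such as BiP (Hspa5) and GRP94 (Hsp90b1) and, when stress lasts, the proapoptotic factor CHOP (Ddit3). Cells that secrete much protein, such as plasma cells, goblet cells and alveolar type 2 cells of the lung, are known to depend on this machinery.

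The promoters of these genes were searched for elements through which the pathways are known to act. Matches were found for Hspa1a, Hspa1b, Hsph1, Hspa5 and Hsp90b1 and are shown. RefSeq promoter windows of GRCm38.p6, from 250 bases before to 50 after the start, were given for 9 of the 10 genes, not for Hsp90aa1. The heat shock element was searched as GAANNTTC, which reads the same on both strands. Of 32851 promoter windows of this length, 7.86% held it, and 0.603% held it with a further unit next to it (GAANNTTCNNGAA or TTCNNGAANNTTC, which contain the shorter motif). The ER stress element was searched on both strands as CCAAT, 9 bases and CCACG, and 0.119% of windows held it. Matches are in capitals, and the sequences are written on the strand of the gene.
Hspa1a, chr17:34972243-34972270, minus strand, upstream of the start: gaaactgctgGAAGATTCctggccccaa
Hspa1b, chr17:34959325-34959352, minus strand, upstream of the start: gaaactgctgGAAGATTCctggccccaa
Hsph1, chr5:149636281-149636307, minus strand, downstream of the start: ctgcagaTTCTGGAAAGTTCtcctcag
Hspa5, chr2:34772021-34772047, plus strand: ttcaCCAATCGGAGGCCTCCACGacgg
Hsp90b1, chr10:86705634-86705660, minus strand, upstream of the start: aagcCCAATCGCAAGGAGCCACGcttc
Hsp90b1, chr10:86705529-86705555, minus strand, upstream of the start, element on the other strand: agtgCGTGGTGAGGCACGATTGGtgag

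The element of Hspa1a and that of Hspa1b stand in the same 28 letters. The Hsph1 match has 3 units. Hspa5 and Hsp90b1 were the only genes of the 10 with an ER stress element in these windows, and Hsp90b1 held 2. The XBP1/ATF6 site TGACGTGG, found in 0.676% of windows, and the ATF4 site TGATGNAAT, found in 0.965%, were searched on both strands and matched in none of the 9 genes. No searched motif was found in the windows of Dnajb1, Xbp1, Ddit3 and Atf4, which says only that these letters are absent there. A match describes the sequence and is no measurement of binding.

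The make-up of the libraries touches every value below. The share of fragments on protein-coding RefSeq transcripts was 33.1% to 33.5% in Saline, 11.9% to 14.9% in OVA and 19.4% to 25.9% in Herb, and the 75th percentile of gene FPKM followed it (5.92 to 6.27, 2.61 to 3.30 and 4.14 to 5.22 FPKM). The median of all genes tested was therefore -0.75 log2 in OVA vs. Saline, 0.48 in Herb vs. OVA and -0.27 in Herb vs. Saline. So each result is given on the deposited scale and, as scaled FPKM, after each library was divided by its 75th percentile, where these medians were 0.00, 0.03 and 0.03. The estimated depth was 14900000 to 29400000 mapped fragments, a number recovered from the spacing of the lowest values. In bulk lung, fewer cells of a type and less RNA per cell cannot be told apart. Tests are limma on log2(FPKM + 1) over all genes with Benjamini-Hochberg adjustment, and a gene is said to rise or fall where the adjusted p was under 0.05.

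The transcript rows need care too. For Hspa5, Xbp1, Atf4 and Hsph1, the table divides the fragments between RefSeq rows and models assembled from the reads, and it did so unevenly between libraries. The models carry no symbol or position in the table and were given to a gene from their locus number and their place among its rows. For Atf4, the models held 17.8% of the FPKM of the locus in Saline replicate 2 and 79.1% to 90.7% in the other 9 libraries. For Xbp1, they held 10.2% in Saline replicate 3 and 72.6% to 85.3% elsewhere. For Hspa5 the share was lowest in Saline replicate 2 (42.3%), OVA replicate 1 (51.3%) and OVA replicate 2 (52.6%), against 73.4% to 79.5% in the others, and for Hsph1 it was 71.9% to 100%. Each of these genes is therefore given as the sum of its RefSeq rows and as a locus sum, which adds the models. For the other 6 genes the sums are the same.

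**Figure D1:**
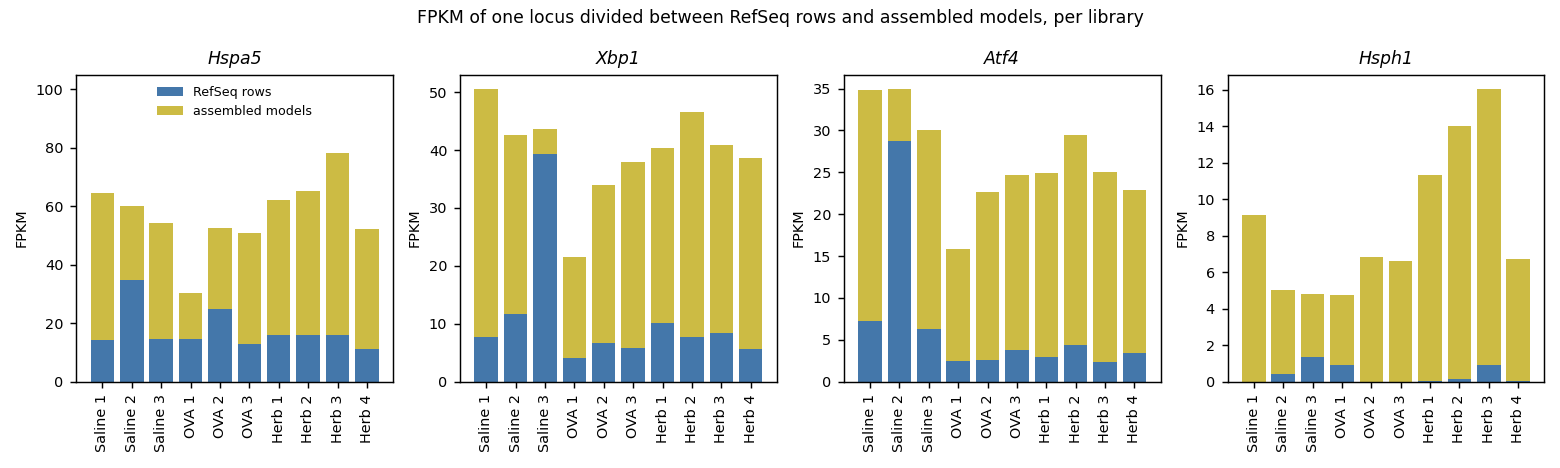
FPKM of Hspa5, Xbp1, Atf4 and Hsph1 (y axis) in each of the 10 libraries (x axis), with the part on RefSeq rows in blue and the part on assembled models in yellow. The RefSeq part of Atf4 stands out in Saline replicate 2 (28.7 FPKM) and that of Xbp1 in Saline replicate 3 (39.3 FPKM), while the whole bars of these 2 genes differ less within Saline (30.1 to 34.9 and 42.6 to 50.5 FPKM).

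In OVA lung compared with Saline lung, 5 of the 9 genes that passed the minimum mean of 1 FPKM were lower and none was higher on the deposited scale. The genes that fell were Dnajb1, Hsp90aa1, Hsp90b1, Xbp1 and Atf4. Of all 11205 genes tested, 57.9% were lower and 3.28% higher, so this count is near the background. On the scaled values other genes were called: Hspa1a, Hspa1b and Ddit3 were higher, none of the 9 was lower, and the background was 20.9% higher and 20.7% lower. The 5 genes that fell on the deposited scale were still negative there (-0.22 to -0.81) without passing. The RefSeq sum of Hsph1 was below the minimum. Scaling to the mRNA share gives each library a common share of fragments on protein-coding RefSeq rows. This share leaves out the assembled models, which the locus sums include, so factor and locus sum cover different transcripts. The median of all locus sums was then 0.27 log2. With this scaling, 7 of the 10 locus sums were higher (background 37.0%) and none was lower (background 13.4%). The higher ones were Hspa1a, Hspa1b, Hsph1, Hspa5, Xbp1, Ddit3 and Atf4.

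In Herb lung compared with OVA lung, Dnajb1 and Hsp90aa1 were higher on the deposited scale, 2 of 9 genes against a background of 44.0%, and none was lower (background 0.446%). After scaling Ddit3 was lower (background 0.345%) and none was higher (background 0.363%). In Herb lung compared with Saline lung, Hsp90b1 and Atf4 were lower on the deposited scale (background 22.7%) and none was higher (background 3.32%). After scaling no gene of the 9 passed in either direction by limma, where the background was 7.85% higher and 6.65% lower. An unadjusted p under 0.05 was seen for 4, with Atf4 (-1.2) and Hsp90b1 (-0.53) lower and Ddit3 (0.28) and Hspa1b (1.19) higher. The share of all genes at that unadjusted threshold is not given, so this count is not read as a result. These comparisons share the OVA or the Saline libraries.

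**Figure D2:**
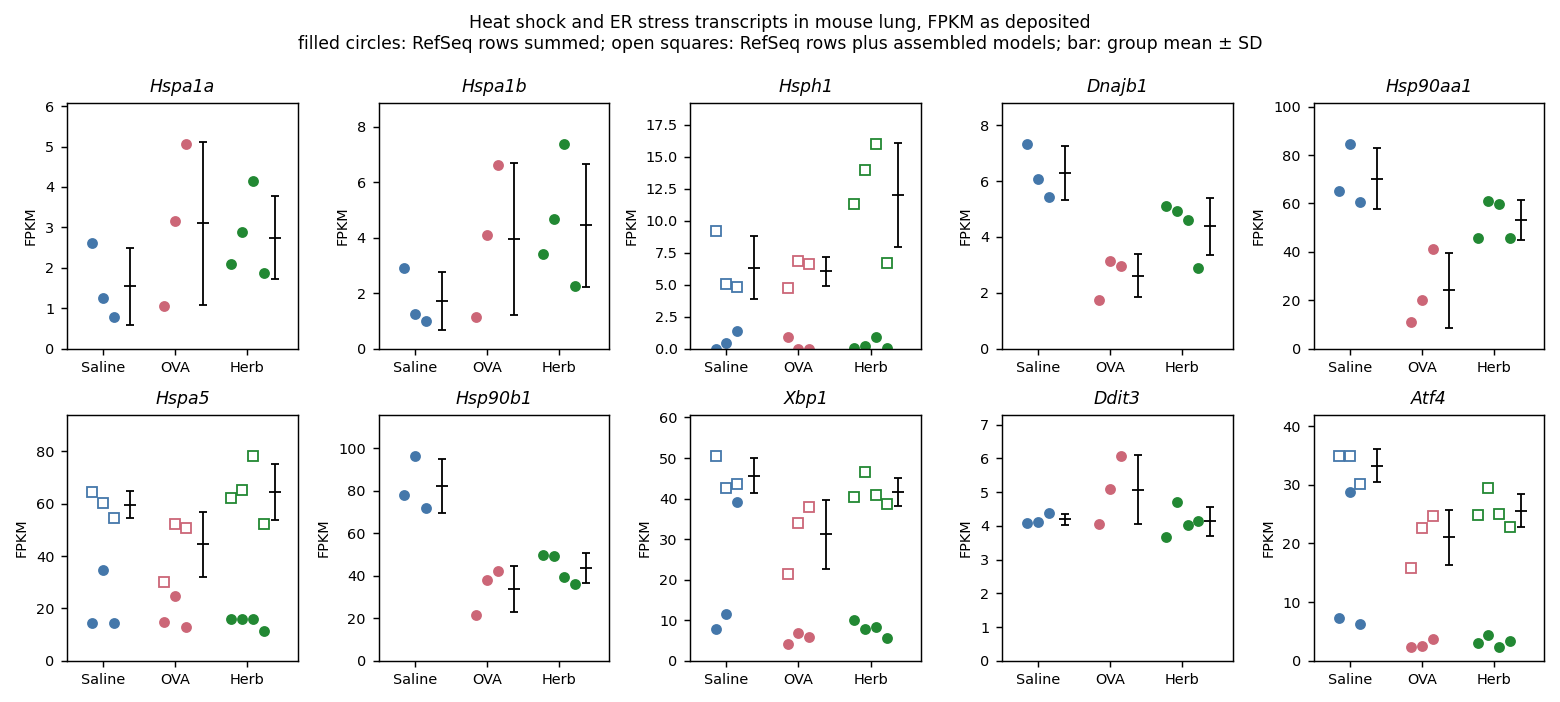
FPKM (y axis) of the 10 genes in each Saline, OVA and Herb library as deposited. Filled circles are RefSeq sums, open squares are locus sums where these differ, and bars give the group mean ± SD of the locus sum. Dnajb1, Hsp90aa1, Hsp90b1 and the locus sums of Hspa5, Xbp1 and Atf4 lie lower in all 3 OVA libraries than in any Saline library. On this scale limma called 61.6% of all locus sums lower in OVA. The share of all locus sums that lie without overlap is not given, so this separation is not read as a result about these genes.

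Hspa1a and Hspa1b encode the stress-inducible cytosolic HSP70. Hspa1a had 2.601, 1.24 and 0.768 FPKM in Saline, 1.06, 3.16 and 5.07 in OVA and 2.09, 2.89, 4.14 and 1.87 in Herb. Hspa1b had 2.90, 1.25 and 1.01 FPKM in Saline, 1.148, 4.11 and 6.64 in OVA and 3.42, 4.69, 7.40 and 2.26 in Herb. The genes ran in parallel across the libraries. OVA replicate 1 lay within the Saline range and the other OVA libraries above it, so the groups overlapped. On the deposited scale the change in OVA vs. Saline was 0.62 log2 for Hspa1a (SE 0.41, adjusted p = 0.219) and 0.75 for Hspa1b (SE 0.50, adjusted p = 0.217). On the scaled values Hspa1a rose by 1.29 log2 (SE 0.42, adjusted p = 0.0349) and Hspa1b by 1.45 (SE 0.51, adjusted p = 0.046).

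These calls rest on few libraries. Without Saline replicate 2, Saline replicate 3, OVA replicate 2 or OVA replicate 3, each in turn, the scaled call was lost for both genes, with an adjusted p of up to 0.108 for Hspa1a and 0.137 for Hspa1b. Hspa1b also lost it without Saline replicate 1, Herb replicate 1 or Herb replicate 2. Without OVA replicate 1, both rose on the deposited scale too, Hspa1a by 1.05 log2 (adjusted p = 0.0349) and Hspa1b by 1.26 (adjusted p = 0.0359). The Herb values did not differ from OVA by the test (Hspa1a -0.03 log2, adjusted p = 0.954, and Hspa1b 0.23, adjusted p = 0.712, deposited). In Herb vs. Saline Hspa1b was 0.98 log2 (SE 0.46, adjusted p = 0.146) and Hspa1a 0.59 (SE 0.39, adjusted p = 0.28).

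The values of Hspa1a and Hspa1b are uncertain as single genes. Their transcripts of 2967 and 2803 bases are near copies: 52.5% of the windows of 76 bases of Hspa1a occur in Hspa1b and 55.6% the other way round, and 296 of 300 promoter bases are the same. How shared reads were divided is not given in the sources used here. Summed, the pair had 5.50, 2.49 and 1.77 FPKM in Saline, 2.20, 7.27 and 11.7 in OVA and 5.51, 7.59, 11.5 and 4.13 in Herb. If all shared reads were kept, the sum depends on that division only through the different lengths of the transcripts. Its groups overlapped as well. An Hspa1a value stood for about 45 to 298 fragments and an Hspa1b value for 56 to 448. Hspa1a also overlaps the gene Gm20481 on the other strand.

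Hsph1 encodes an HSP110 protein that exchanges the nucleotide of HSP70. Its RefSeq row was at most 1.36 FPKM and was listed at 0 in Saline replicate 1 and OVA replicates 2 and 3. Its locus sum was 9.16, 5.01 and 4.83 FPKM in Saline, 4.76, 6.81 and 6.60 in OVA and 11.3, 14.0, 16.0 and 6.70 in Herb. Thus 3 of the 4 Herb libraries were above all others and Herb replicate 4 lay among the OVA values. The locus sum rose in Herb vs. OVA by 0.84 log2 on the deposited scale (SE 0.29, adjusted p = 0.0382, background 51.3% higher), and on the scaled values the change was 0.28 (SE 0.28, adjusted p = 0.537). Scaled Hsph1 rose in OVA vs. Saline by 0.83 (SE 0.30, adjusted p = 0.0467) and in Herb vs. Saline by 1.11 (SE 0.28, adjusted p = 0.0285), but on the deposited scale OVA vs. Saline was -0.02 (adjusted p = 0.961). The Herb vs. OVA call was lost without any OVA library or without Herb replicate 1, 2 or 3 (adjusted p up to 0.13). The scaled OVA vs. Saline call was lost in 7 of the 10 fits that left out 1 library (adjusted p up to 0.138 without Saline replicate 3), and the scaled Herb vs. Saline call was lost without Saline replicate 2 or 3 or Herb replicate 1 or 3 (adjusted p up to 0.106).

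Dnajb1 encodes the HSP40 cochaperone that delivers clients to HSP70. It had 7.35, 6.09 and 5.44 FPKM in Saline, 1.75, 3.14 and 2.96 in OVA and 5.09, 4.93, 4.61 and 2.89 in Herb. Every OVA library was below every Saline library, and 3 of 4 Herb libraries lay between the groups. Dnajb1 fell by 1.03 log2 in OVA vs. Saline on the deposited scale (SE 0.22, adjusted p = 0.00287) and rose by 0.58 in Herb vs. OVA (SE 0.20, adjusted p = 0.046). With scaling these changes were -0.22 (adjusted p = 0.378) and 0.09 (adjusted p = 0.782), and they turned to 0.01 and -0.01 with scaling to the mRNA share. The rise was lost in 8 of the 10 fits with 1 library left out, with the smallest change (0.39, adjusted p = 0.166) without OVA replicate 1. It was also lost with scaling, and stayed only when OVA replicate 2 or Herb replicate 4 was left out.

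Hsp90aa1 encodes the inducible cytosolic HSP90. It had 65.3, 84.7 and 60.8 FPKM in Saline, 10.9, 19.98 and 41.2 in OVA and 45.9, 60.9, 59.6 and 45.7 in Herb. All OVA libraries were below all Saline and all Herb libraries, and they spread over a wide range, with OVA replicate 1 lowest. Hsp90aa1 fell by 1.68 log2 in OVA vs. Saline (SE 0.39, adjusted p = 0.00482), and rose by 1.29 in Herb vs. OVA (SE 0.37, adjusted p = 0.0214), both on the deposited scale. After scaling it was -0.69 (SE 0.37, adjusted p = 0.167) and 0.67 (SE 0.35, adjusted p = 0.252). With quantile normalization OVA vs. Saline was 0.11 and did not pass (adjusted p = 0.856). The rise in Herb was lost without OVA replicate 1 (0.85, adjusted p = 0.0615), OVA replicate 2 (adjusted p = 0.0511) or Herb replicate 2 (adjusted p = 0.0528). Without OVA replicate 3, Hsp90aa1 fell on the scaled values as well (-1.15, adjusted p = 0.0108).

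Hspa5 encodes BiP, the HSP70 of the ER and a sensor of its folding load. Its locus sum was 64.5, 60.2 and 54.4 FPKM in Saline, 30.2, 52.4 and 50.9 in OVA and 62.1, 65.2, 78.3 and 52.3 in Herb. All OVA libraries lay under the Saline range, OVA replicates 2 and 3 by little. Its RefSeq sum was highest in Saline replicate 2 (34.7 FPKM) and OVA replicate 2 (24.8) and 11.3 to 16.1 in the other 8 libraries. On the deposited and the 75th percentile scale no change passed the test as a locus sum. It was -0.45 log2 in OVA vs. Saline (SE 0.23, adjusted p = 0.114) and 0.55 in Herb vs. OVA (SE 0.22, adjusted p = 0.0586) on the former, and 0.51 (SE 0.21, adjusted p = 0.0709) and -0.07 (adjusted p = 0.838) on the latter. With scaling to the mRNA share the locus sum rose in OVA vs. Saline (0.84, SE 0.22, adjusted p = 0.0124), where the median of all locus sums was 0.27. The scaled locus sum was above the Saline range in all 3 OVA libraries, and it passed without OVA replicate 1 (0.68, adjusted p = 0.0328) or without Herb replicate 3 (0.51, adjusted p = 0.0319). The deposited locus sum passed in Herb vs. OVA without OVA replicate 2 (adjusted p = 0.0419) or Herb replicate 4 (adjusted p = 0.0481). The RefSeq sum was -0.20 in OVA vs. Saline as deposited and 0.77 after scaling (adjusted p = 0.651 and 0.108), and the latter passed without Saline replicate 2 (1.19, adjusted p = 0.0128). With quantile normalization and with scaling to the mRNA share the RefSeq sum rose by 1.38 (adjusted p = 0.0095) and 1.05 (adjusted p = 0.0352).

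Hsp90b1 encodes GRP94, the HSP90 of the ER. It had 77.9, 96.4 and 72.1 FPKM in Saline, 21.6, 37.9 and 42.0 in OVA and 49.6, 49.4, 39.4 and 36.1 in Herb. Saline was above every other library, and OVA and Herb overlapped. Hsp90b1 fell by 1.3 log2 in OVA vs. Saline (SE 0.26, adjusted p = 0.0022) and by 0.90 in Herb vs. Saline (SE 0.25, adjusted p = 0.0288) on the deposited scale, where Herb vs. OVA was 0.40 (adjusted p = 0.213). After scaling they were -0.29 (adjusted p = 0.278), -0.53 (SE 0.19, adjusted p = 0.0921) and -0.24 (adjusted p = 0.447), and with quantile normalization OVA vs. Saline turned to 0.59 (adjusted p = 0.0239). The Herb vs. Saline call was lost without any Saline library or without Herb replicate 3 or 4 (adjusted p up to 0.101), and on the scaled values it passed without OVA replicate 1 (adjusted p = 0.0488). The locus also holds Gm15344, the miRNA gene Gm25745 and, on the other strand, 1810014B01Rik.

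Xbp1 encodes the transcription factor that IRE1 activates by splicing its mRNA. Its locus sum was 50.5, 42.6 and 43.7 FPKM in Saline, 21.5, 34.0 and 38.0 in OVA and 40.4, 46.6, 41.0 and 38.6 in Herb. OVA replicate 1 was far below the rest, and the other OVA libraries lay just under Saline and Herb. The locus sum fell by 0.57 log2 in OVA vs. Saline (SE 0.21, adjusted p = 0.0335, background 61.6% lower) on the deposited scale and was 0.39 (SE 0.16, adjusted p = 0.0642) on the scaled values. With scaling to the mRNA share, where the median of all locus sums was 0.27, it rose by 0.71 (SE 0.17, adjusted p = 0.00742). Its call thus turned with the scaling. Without OVA replicate 1 the deposited change was -0.33 (adjusted p = 0.0831) and the scaled change passed (0.54, adjusted p = 0.0145). The deposited call was also lost without Saline replicate 1, 2 or 3 (adjusted p up to 0.105). In Herb vs. OVA the locus sum was 0.44 (SE 0.19, adjusted p = 0.0805), and it passed without OVA replicate 3 (0.60, adjusted p = 0.039).

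The RefSeq sum of Xbp1 gave a larger fall in OVA vs. Saline (-1.35, SE 0.49, adjusted p = 0.0363), which rested on Saline replicate 3 with its 39.3 FPKM against 7.76 and 11.7 in the other Saline libraries. Without that library it was -0.70 (adjusted p = 0.0589), and the call was lost without any of the OVA libraries too (adjusted p up to 0.109). Of the RefSeq rows of Xbp1, the row NM_001271730 was listed at 0 in all 10 libraries, and the row NM_013842 held the whole RefSeq sum. These rows differ by the splicing that IRE1 carries out, and a row listed at 0 can be a failed estimate, so the table gives no measure of Xbp1 splicing.

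Ddit3 encodes CHOP. It had 4.09, 4.10 and 4.38 FPKM in Saline, 4.05, 5.11 and 6.08 in OVA and 3.68, 4.71, 4.03 and 4.13 in Herb. On the deposited scale the groups overlapped, with 0.21 log2 in OVA vs. Saline (SE 0.14, adjusted p = 0.21) and -0.23 in Herb vs. OVA (SE 0.13, adjusted p = 0.172), where the median of all genes moved by -0.75 and 0.48. The scaled values were 3.002, 3.19 and 3.31 in Saline, 7.14, 7.12 and 9.09 in OVA and 3.47, 4.15, 4.48 and 4.20 in Herb. Here no OVA library overlapped with another group, and Herb lay just above Saline. Scaled Ddit3 rose by 1.07 log2 in OVA vs. Saline (SE 0.12, adjusted p = 0.000939) and fell by 0.79 in Herb vs. OVA (SE 0.11, adjusted p = 0.0237), and in Herb vs. Saline it was 0.28 (SE 0.11, adjusted p = 0.12).

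The rise of scaled Ddit3 held in all 10 fits with 1 library left out, and its fall in Herb vs. OVA was lost without Saline replicate 3 or Herb replicate 1, 2 or 4 (adjusted p up to 0.0747). Without OVA replicate 1 Ddit3 also rose on the deposited scale (0.34, adjusted p = 0.0459). The Ddit3 transcript is short (890 bases), and genes under 1000 bases had a median of -0.11 on the scaled values of OVA vs. Saline, against 0.01 for those of 2000 to 3000 bases. A Ddit3 value stood for about 56 to 107 fragments. Ddit3 overlaps Mars and Gm4189 on the other strand, and the sources differ on whether the library kit kept the strand. The row NM_001290183 was listed at 0 in all libraries and NM_007837 held all values.

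Atf4 encodes the transcription factor whose translation rises when PERK or another kinase phosphorylates eIF2α, so its mRNA level is only part of its regulation. Its locus sum was 34.8, 34.9 and 30.1 FPKM in Saline, 15.8, 22.6 and 24.7 in OVA and 24.9, 29.5, 25.1 and 22.9 in Herb. Saline was above all other libraries, and OVA and Herb overlapped in part. The locus sum fell by 0.66 log2 in OVA vs. Saline (SE 0.18, adjusted p = 0.00939) on the deposited scale and was 0.29 (SE 0.14, adjusted p = 0.11) on the scaled values. With scaling to the mRNA share, where the median of all locus sums was 0.27, the locus sum rose by 0.61 (SE 0.15, adjusted p = 0.0075). Its call thus turned with the scaling. The RefSeq sum gave a fall of 1.65 (SE 0.47, adjusted p = 0.0126) and a fall of 1.53 in Herb vs. Saline (SE 0.44, adjusted p = 0.0335). Saline replicate 2 held 28.7 FPKM on RefSeq rows, and without it the changes were -1.01 and -0.89 and still passed. The call in Herb vs. Saline was lost as a locus sum (-0.37, SE 0.17, adjusted p = 0.124), and as a RefSeq sum without Herb replicate 1, 3 or 4 (adjusted p up to 0.0818).

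**Figure D3:**
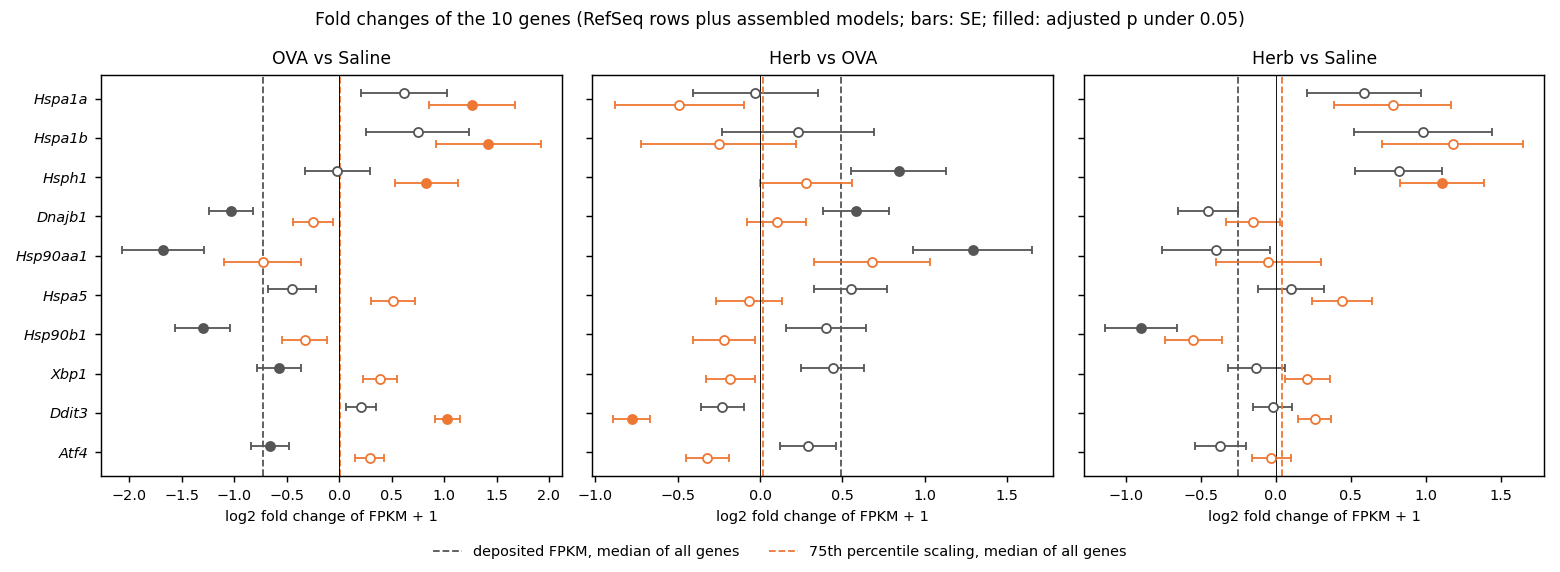
Log2 fold change of FPKM + 1 (x axis) of the 10 locus sums in the 3 comparisons, on the deposited scale in grey and after scaling to the 75th percentile in orange, with bars for the SE, filled points for an adjusted p under 0.05 and dashed lines for the median of all genes. In OVA vs. Saline the scaled points of Hspa1a, Hspa1b, Hsph1 and Ddit3 are filled on the right of 0, and the deposited points of Dnajb1, Hsp90aa1, Hsp90b1, Xbp1 and Atf4 on the left.

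Ratios between these genes within a library are left as they are when the library is divided by 1 factor, as with the 75th percentile or the mRNA share. Quantile normalization changes them, and with it Hspa1a and Hsp90aa1 were 1.25 and 0.11 log2 in OVA vs. Saline, against 0.62 and -1.68 as deposited. The ratio of Hspa1a plus Hspa1b to Hsp90aa1 was 0.0843, 0.0294 and 0.0292 in Saline, 0.201, 0.364 and 0.285 in OVA and 0.120, 0.125, 0.194 and 0.0903 in Herb. The groups did not overlap, and the OVA mean was 5.95 times the Saline mean and the Herb mean 0.466 times the OVA mean. The ratio of Ddit3 to the Atf4 locus was 0.117, 0.117 and 0.146 in Saline, 0.256, 0.226 and 0.247 in OVA and 0.148, 0.16, 0.161 and 0.181 in Herb. This order was the same, Saline lowest and OVA highest without overlap, with 1.91 times the Saline mean in OVA and 0.668 times the OVA mean in Herb.

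Of the ER chaperones, the ratio of the Hspa5 locus to Hsp90b1 was 0.828, 0.624 and 0.754 in Saline, 1.40, 1.38 and 1.21 in OVA and 1.25, 1.32, 1.99 and 1.45 in Herb. All OVA and Herb libraries were above Saline, by 1.81 and 2.04 times in the mean, and OVA and Herb overlapped. The ratio of the Hsph1 locus to Hsp90aa1 was also higher in OVA (mean 0.312 ± 0.140, SD, n = 3) than in Saline (0.0930 ± 0.0422, SD, n = 3), with Herb in between (0.223 ± 0.0535, SD, n = 4). The ratios of the Xbp1 locus to Atf4, of Dnajb1 to Hsp90aa1 and of Hspa1b to Hspa1a overlapped between OVA and Saline. By two-sided exact permutation tests the smallest possible p is 0.1 for 3 against 3 libraries and 0.0571 for 3 against 4, so the design cannot pass 0.05. The OVA vs. Saline ratios without overlap had p = 0.1 (exact permutation test, 0.175 after adjustment over the 21 ratio comparisons). The choice of these ratios followed a look at the values.

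**Figure D4:**
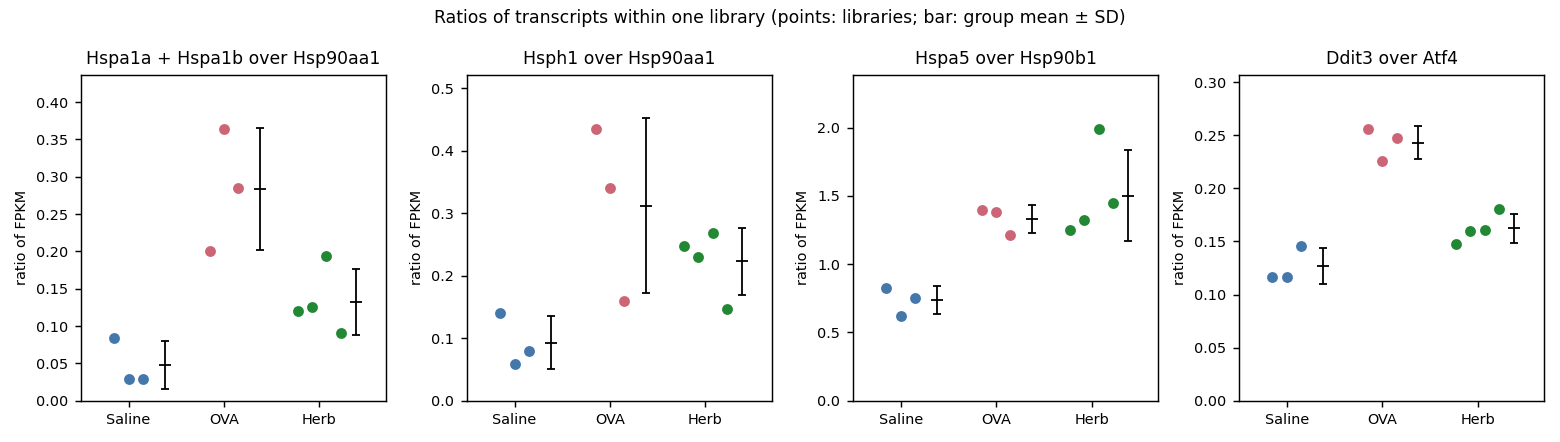
Ratios of FPKM within a library (y axis) for 4 pairs of genes in Saline, OVA and Herb, with points for libraries and bars for the group mean ± SD. The OVA points lie above the Saline points in all 4 panels, and the Herb points lie between them for Hspa1a plus Hspa1b over Hsp90aa1 and for Ddit3 over Atf4.

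The list of other heat shock response genes and cochaperones held 33 genes, among them the mitochondrial chaperone genes Hspd1, Hspe1, Hspa9 and Trap1 and the ER chaperone gene Serpinh1, and 32 were tested. In OVA vs. Saline 20 fell and 1 rose on the deposited scale (over all genes 57.9% and 3.28%), with a median of -1.15 log2 against -0.75 over all genes. After scaling 10 fell and 4 rose (over all genes 20.7% and 20.9%), with a median of -0.24 against 0.00. In Herb vs. OVA 21 rose and none fell on the deposited scale (over all genes 44.0% and 0.446%), with a median of 0.74 against 0.48. On the scaled values 1 rose and none fell (over all genes 0.363% and 0.345%). It was the mitochondrial chaperonin Hspd1 (0.98, SE 0.13, adjusted p = 0.0151, lost without Herb replicate 1 or 2). The constitutive HSP90 gene Hsp90ab1 had 102 to 115 FPKM in Saline, 24.3 to 42.3 in OVA and 72.7 to 97.3 in Herb. It fell in OVA vs. Saline on both scales (-1.66, adjusted p = 0.00028, and -0.65, adjusted p = 0.00792). The HSP70 cofactor Bag1 fell on the deposited scale (-1.3, adjusted p = 0.000711), and Hspa8, the constitutive HSP70, was listed at 0 in at least 1 library of every group and reached 117 FPKM in another, so it gives no measure.

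Chordc1, a cochaperone of HSP90, was the gene of this list that rose in OVA vs. Saline on the deposited scale, where 20 fell and 11 did not pass. After scaling Dnajb6, Hspa2 and Trap1 rose as well. Chordc1 is named, as are Herpud1, Derl3, Edem1, Ern1, Aars and Hspd1, after its values were seen. Chordc1 had 2.76, 2.47 and 2.92 FPKM in Saline, 5.05, 6.70 and 5.70 in OVA and 11.7, 10.7, 9.91 and 8.91 in Herb. The 3 groups were fully separated. On the deposited scale Chordc1 rose by 0.87 log2 in OVA vs. Saline (SE 0.14, adjusted p = 0.000554), by 0.73 in Herb vs. OVA (SE 0.13, adjusted p = 0.00716) and by 1.60 in Herb vs. Saline (SE 0.13, adjusted p = 0.000854). Scaled Chordc1 rose by 1.70 in OVA vs. Saline (adjusted p = 0.000147), and Herb vs. OVA was 0.16 (adjusted p = 0.325). No call of Chordc1 changed when any 1 library was left out.

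Among the 41 genes of ER folding, translocation and ER-associated degradation, all tested, 25 fell and 2 rose in OVA vs. Saline on the deposited scale (median -0.74 against -0.75 over all genes), and 8 rose and 10 fell on the scaled values (median 0.06 against 0.00). The deposited background was 57.9% lower and 3.28% higher, and the scaled background 20.7% lower and 20.9% higher. In Herb vs. OVA 26 rose and 1 fell on the deposited scale (median 0.70 against 0.48), with 44.0% of all genes higher and 0.446% lower. On the scaled values 1 fell and none rose in Herb vs. OVA (over all genes 0.345% and 0.363%). The most abundant were the disulfide isomerases P4hb and Pdia3 and the lectin chaperone Canx. P4hb had 59.2 to 72.6 FPKM in Saline, 21.8 to 43.9 in OVA and 59.8 to 66.5 in Herb. It fell by 0.95 in OVA vs. Saline (adjusted p = 0.00738) and rose by 0.90 in Herb vs. OVA (adjusted p = 0.0129), as Pdia3 (-1.36 and 1.01) and Canx (-1.50 and 1.15) did. On the scaled values none of the 3 passed as a RefSeq sum (adjusted p from 0.0512 to 0.821 in OVA vs. Saline), while the locus sum of Canx fell (-0.55, adjusted p = 0.0291).

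The ER genes that rose in OVA vs. Saline on the deposited scale were Herpud1 and Derl3, which act in the degradation of misfolded ER proteins. Edem1, Edem2, Manf, Pdia5, Sil1 and Txndc11 rose beside them on the scaled values. Those that fell on the scaled values were Dnajb9, Dnajc10, Dnajc3, Edem3, Ero1l, Hspa13, Sec61g, Spcs2, Ssr1 and Ssr3. Herpud1 had 1.36, 2.31 and 2.0 FPKM in Saline, 12.1, 13.3 and 10.8 in OVA and 1.87, 5.22, 18.0 and 1.1 in Herb. The OVA libraries were close together and far above Saline, while Herb spread from below Saline to above OVA. Herpud1 rose by 2.19 log2 on the deposited scale (SE 0.68, adjusted p = 0.0192) and by 3.02 on the scaled values (SE 0.72, adjusted p = 0.01). The deposited call was lost without Saline replicate 1 (adjusted p = 0.0561). In Herb vs. OVA Herpud1 was -1.34 (SE 0.63, adjusted p = 0.113), and it fell when Herb replicate 3 was left out (adjusted p = 0.00661).

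Derl3 had 0.309, 0.527 and 0.279 FPKM in Saline, 0.891, 1.27 and 1.83 in OVA and 0.932, 0.747, 2.26 and 1.1 in Herb, and rose in OVA vs. Saline on both scales (0.75, adjusted p = 0.0273, and 1.22, adjusted p = 0.00791). Its deposited call was lost without Saline replicate 1 or 3 (adjusted p up to 0.0737), and it passed the minimum level in 7 of the 10 fits that left out 1 library. Edem1, which draws misfolded glycoproteins out of the folding cycle, had 1.89, 2.6 and 2.1 FPKM in Saline, 2.20, 3.05 and 2.03 in OVA and 1.36, 1.1, 0.653 and 1.27 in Herb. All Herb libraries were below all others. Edem1 fell in Herb vs. OVA on both scales (-0.71, SE 0.16, adjusted p = 0.0104, and -1.19, SE 0.15, adjusted p = 0.012), and these calls held whichever library was left out. On the scaled values it also rose in OVA vs. Saline (0.82, SE 0.16, adjusted p = 0.00437), in all 10 of these fits too, while the deposited change was 0.09 (adjusted p = 0.665). Its fall in Herb vs. Saline (-0.62, adjusted p = 0.0271) was lost without any Saline library or without Herb replicate 3 (adjusted p up to 0.0978) and on the scaled values (-0.37, adjusted p = 0.125).

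Of 7 genes of the ER stress sensors and the proteases that cleave ATF6, 6 were tested. On the deposited scale 4 fell in OVA vs. Saline, Atf6, Eif2ak3, Mbtps1 and Mbtps2, and Ern1 rose (median -0.96 against -0.75 over all genes). Over all genes 57.9% fell and 3.28% rose. On the scaled values Ern1 and Eif2ak3 rose and Mbtps2 fell, where 20.9% of all genes rose and 20.7% fell. Ern1 had 0.875, 0.943 and 1.2 FPKM in Saline, 1.86, 2.64 and 2.66 in OVA and 1.64, 2.47, 1.89 and 1.74 in Herb. Saline was below all other libraries. Ern1 rose by 0.75 log2 in OVA vs. Saline on the deposited scale (SE 0.15, adjusted p = 0.00223) and by 1.40 on the scaled values (SE 0.12, adjusted p = 0.000575), and both calls held in all 10 fits with 1 library left out. Its scaled fall in Herb vs. OVA (-0.68, SE 0.12, adjusted p = 0.0413) was lost in 9 of these fits, and its deposited rise in Herb vs. Saline (0.55, adjusted p = 0.0254) was lost without Saline replicate 1 or 2 or Herb replicate 3. The PERK gene Eif2ak3 had 6.12 to 7.11 FPKM in Saline, 4.44 to 5.37 in OVA and 6.09 to 6.67 in Herb, and it fell by 0.37 on the deposited scale (adjusted p = 0.0141) and rose by 0.51 on the scaled values (adjusted p = 0.00512).

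The integrated stress response, which runs through eIF2α, ATF4 and CHOP, was covered by 28 genes, of which 24 were tested. In OVA vs. Saline 14 fell and 1 rose on the deposited scale (median -0.73 against -0.75), close to the 57.9% and 3.28% of all genes, and 7 rose and 2 fell on the scaled values (median 0.21 against 0.00), where 20.9% and 20.7% of all genes did. In Herb vs. OVA 8 rose and none fell on the deposited scale (44.0% and 0.446% of all genes), and none of the 24 passed on the scaled values by limma. The gene that rose on the deposited scale was Aars, a tRNA synthetase gene, with 2.64, 2.80 and 2.89 FPKM in Saline, 3.47, 4.19 and 5.12 in OVA and 3.21, 2.78, 4.63 and 3.44 in Herb. Its deposited change of 0.47 (adjusted p = 0.0347) was lost without any Saline library or without OVA replicate 2 or 3 (adjusted p up to 0.115), and its scaled change of 1.28 (adjusted p = 0.00186) held throughout. The most abundant genes were the stress protein gene Nupr1, the transcription factor gene Cebpb and Nars. Cebpb had 17.0 to 18.8 FPKM in Saline, 15 to 18.3 in OVA and 16.6 to 25.1 in Herb, with -0.08 in OVA vs. Saline on the deposited scale (adjusted p = 0.695) and a rise of 0.90 on the scaled values (adjusted p = 0.00136). Nupr1 and Nars fell in OVA on the deposited scale (-1.14, adjusted p = 0.0174, and -0.73, adjusted p = 0.0011) and did not pass on the scaled values (adjusted p = 0.726 and 0.157).

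**Figure D5:**
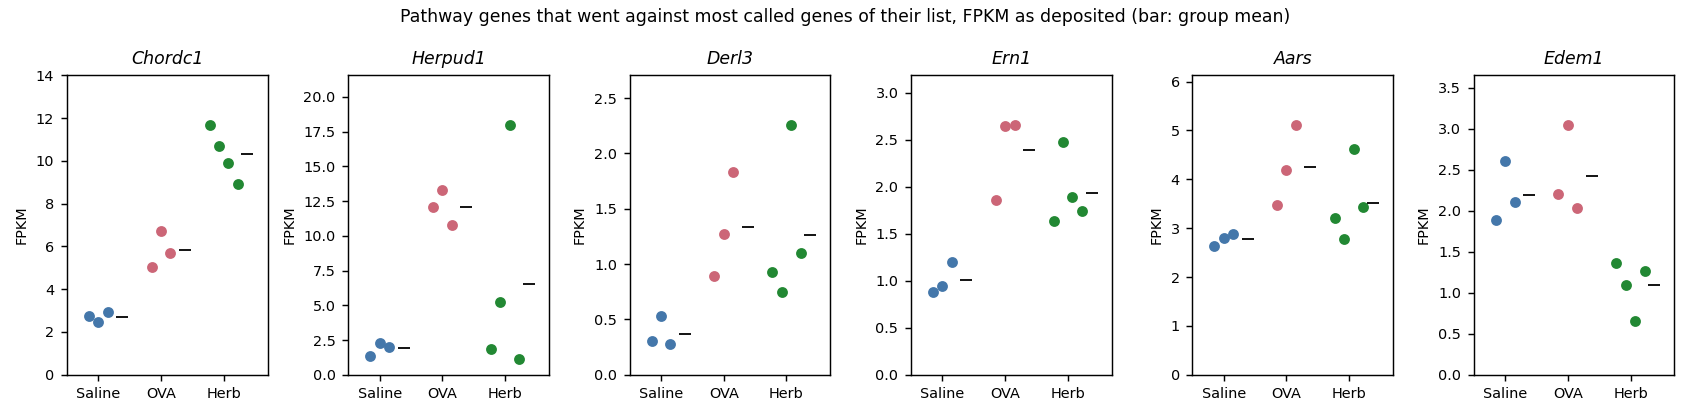
FPKM (y axis) of Chordc1, Herpud1, Derl3, Ern1, Aars and Edem1 in each Saline, OVA and Herb library as deposited, with bars for the group means. The first 5 are higher in all 3 OVA libraries than in any Saline library, Chordc1 is highest in Herb (8.91 to 11.7 FPKM), and Edem1 is lowest in Herb.

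Markers of cell types are given with the shares over all genes beside them. In OVA vs. Saline 57.9% of all genes were lower and 3.28% higher on the deposited scale. On the scaled values 20.7% were lower and 20.9% higher. The lung markers were present, and the 8 alveolar type 2 markers summed to 3370 to 4400 FPKM in Saline, 472 to 822 in OVA and 1090 to 1990 in Herb, with Sftpc at 2370 to 3230, 210 to 460 and 564 to 1270. Of these 8, 6 fell in OVA vs. Saline on the deposited scale and 5 on the scaled values. Of 8 endothelial markers 7 fell, and 5 on the scaled values, and their sum was 451 to 502 FPKM in Saline, 70.1 to 119 in OVA and 173 to 319 in Herb, with Pecam1 at 49.6 to 122, 21.8 to 36.7 and 43.9 to 85.5. The sum of 10 goblet cell markers was 0.635 to 6.44 FPKM in Saline, 23.3 to 1050 in OVA and 49.9 to 792 in Herb, and 2 of the 8 tested rose in OVA. Their top gene Clca1 was at 0 to 0.0544, 15.8 to 788 and 34.5 to 596 FPKM.

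Of 10 plasma cell markers 9 were in the table, not Igha, and they summed to 23.0 to 42.3 FPKM in Saline, 10.7 to 19.7 in OVA and 22.5 to 37.4 in Herb. Of 7 tested, 3 fell on the deposited scale, Sdc1 among them (-0.78, adjusted p = 0.0298), and Derl3, which is also on the ER list, rose. Over all genes 57.9% fell and 3.28% rose. On the scaled values Derl3 rose and 1 fell, Sdc1 was 0.16 (adjusted p = 0.607), and the sums overlapped (16.9 to 32.0 in Saline and 18.9 to 29.4 in OVA). Of 8 macrophage markers 7 were in the table, not Siglec5, with sums of 106 to 213, 85.3 to 287 and 359 to 630 FPKM. Chil3 alone held 71.0 to 163, 69.7 to 256 and 320 to 593 FPKM of these sums. Of 5 tested, Cd68 fell in OVA vs. Saline on the deposited scale and none rose, and on the scaled values only Chil3 passed, and rose. In Herb vs. OVA Adgre1, Chil3 and Mrc1 rose on the deposited scale, as 44.0% of all genes did, and none passed after scaling. Chil3 was 1.74 there as deposited (adjusted p = 0.015) and 1.1 after scaling (adjusted p = 0.153). The 8 eosinophil markers summed to 24.4 to 48.4, 4.76 to 10.3 and 10.1 to 14.6 FPKM. All 3 tested, Ear1, Ear2 and Siglecf, fell in OVA on both scales, with Ear1 at -2.88 (adjusted p = 0.00061). Epx, Prg2, Ear6, Ccr3 and Il5ra were below the minimum and not tested, so the list gives no measure of eosinophil number. The study itself counted more eosinophils and macrophages in lavage fluid of OVA mice than of saline mice. It counted fewer of these inflammatory cells in mice given the extract than in OVA mice. No listed marker present in the table was at 0 in all libraries. Immediate early genes, which respond to handling of tissue, summed to 154 to 168 FPKM in Saline, 72.2 to 126 in OVA and 108 to 167 in Herb. Of 12 tested, 6 fell on the deposited scale, against 57.9% of all genes, Btg2 among them (-1.17, adjusted p = 0.00453). On the scaled values 3 rose and 1 fell, against 20.9% and 20.7% of all genes, and Btg2 was -0.18 (adjusted p = 0.47). The scaled sums were 120 to 124 in Saline and 127 to 176 in OVA, so the order of the groups turned. The part of these cell types, of handling and of the mRNA fragment share in the values of the 10 genes was not tested.

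The genes whose scaled profile over the 10 libraries was most like the mean of Hspa1a, Hspa1b, Dnajb1 and Hsp90aa1 were Rlf, Mir6399 and Fbxw17, with root mean square distances of 0.200, 0.227 and 0.234 log2 against a median of 0.554 over 11044 genes. Those most like the mean RefSeq profile of Hspa5, Hsp90b1, Xbp1, Ddit3 and Atf4 were Rab20, 2010320M18Rik and Dguok, with distances of 0.158, 0.162 and 0.166 against a median of 0.463. The own spread of these mean profiles was 0.442 and 0.295 log2. The points share the libraries and their scaling.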

How the data were processed

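Total lung RNA was sequenced in 10 libraries, grouped by their labels. The authors trimmed reads with cutadapt 1.10, aligned them to mm10 with HISAT2, assembled and quantified transcripts with StringTie 1.3.3b and deposited FPKM per transcript (per the labels and the study's methods). The authors ran edgeR on counts, version 3.16.5 per the labels, while the methods name another version. The methods also name the ballgown package for the expression levels. The deposited table holds 66548 rows, 31605 of them assembled models, and no columns of other samples (0). The labels name Trizol and an unstranded kit, the methods a column extraction and a stranded kit. Nothing says that libraries of a group came from pooled animals, and p-values measure the spread between these samples.

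RefSeq rows were summed per symbol and tested with limma 3.58.1 in R 4.3.3 (functions lmFit and eBayes, trend on) after a log2(FPKM + 1) step, on which scale changes of low genes are understated, with 3 group means over all 10 libraries, a minimum mean of 1 FPKM and Benjamini-Hochberg adjustment at 0.05. FPKM are not counts, so no count model was used, and intervals from depth were not given. Depth was estimated from the spacing of low FPKM times length, and GENCODE vM21 gave lengths and positions (GRCm38.p6, the assembly of mm10). Locus sums added 7048 assembled models to 2524 symbols by numbering and row order, were chosen after seeing the data, and carry no position that could be checked. Alternatives were scaling (75th percentile, quantile, mRNA share), pseudocounts of 0.1 and 0.01, no filter, a minimum of 5 FPKM, no trend, 2 groups only, single rows, a replicate block and leaving out each library. Python 3.11.15 with pandas 2.3.3, numpy 2.4.6, scipy 1.17.1 and matplotlib 3.10.9 was used. The procedure was tested on simulated data in which a small part of the genes changed and no library-wide shift was set. That test therefore does not cover the shift between the groups seen here.

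The genes, lists and tests were chosen with earlier results of these data known. Named are the 10 genes, the 3 most abundant genes of each pathway list (heat shock, ER folding, ER stress sensors, integrated stress response), the most abundant gene of each marker list, and the 3 nearest profiles of each gene class (of the cytosolic class only 4 passed the minimum).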

Additional observations from a re-analysis of the deposited data

Results flagged for a closer look

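Within the 4 Herb libraries, a library stood far from the other 3 in 4 of 40 sets of values, which overlap since each gene enters as RefSeq and locus sum and on both scales. Chance alone gives about 1 in 20 groups. The Hsph1 RefSeq sum of Herb replicate 3 was 0.899 FPKM (1.00 after scaling to the 75th percentile, the same library on the other scale) against 0.0242 to 0.169 FPKM in the others, while its locus sum was 16.0 FPKM there and 6.70 to 14.0 in the others. The Hspa5 RefSeq sum of Herb replicate 4 was 11.3 FPKM against 16.0 to 16.1. The scaled Hspa5 locus sum of Herb replicate 3 was 86.8 against 52.8 to 58.0.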

How the results depend on the processing

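Of 1539 alternative values of the 10 genes, 1328 kept their direction or stayed outside the threshold in both fits (100 of these with another sign), 144 lost the call, 46 gained it and 21 reversed. Reversed means another sign with a call in either fit, so the new value need not have passed. Reversed gene sums in OVA vs. Saline were Hsp90aa1 0.11, Hspa5 1.38 and Hsp90b1 0.59 log2 with quantile normalization, Dnajb1 0.01 and Hspa5 1.05 with mRNA share scaling. Of these Hsp90aa1 (adjusted p = 0.856) and Dnajb1 (adjusted p = 0.96) did not pass. Against the gene sums, Xbp1 0.39 and Atf4 0.29 reversed as scaled locus sums without passing (adjusted p = 0.0642 and 0.11). In Herb vs. OVA Dnajb1 was -0.01 with mRNA share scaling as gene and as locus sum (adjusted p = 0.988 and 0.986). Locus sums reversed against their deposited values in OVA vs. Saline for Hsph1 (0.88), Hspa5 (1.25), Hsp90b1 (0.33), Xbp1 (0.99) and Atf4 (0.8) with quantile normalization and for Hsph1 (1.12), Dnajb1 (0.01), Hspa5 (0.84), Xbp1 (0.71) and Atf4 (0.61) with mRNA share scaling, and in Herb vs. Saline for Xbp1 (0.59, quantile) and Ddit3 (0.41, mRNA share). Of these locus sums Hsp90b1 (adjusted p = 0.171) and Dnajb1 (adjusted p = 0.957) did not pass. These fits of locus sums were added after seeing the data. The scaled rise of Ddit3 in OVA also passed with quantile normalization (1.1, adjusted p = 0.00133) and mRNA share scaling (1.31, adjusted p = 0.000584), and that of Hspa1a was 1.25 (adjusted p = 0.0555) and 1.49 (adjusted p = 0.0231).

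Of all 11205 genes tested, 6853 were called in OVA vs. Saline, 4982 in Herb vs. OVA and 2921 in Herb vs. Saline. With 75th percentile scaling, 80 and 1640 of 11309 were called in the last pair of comparisons (80 in Herb vs. OVA as scaled locus sums). Quantile normalization gave 4004, 157 and 841, a minimum of 5 FPKM, which tests fewer genes, gave 3180, 2722 and 1716, and mRNA share scaling gave 147 in Herb vs. OVA. Leaving out 1 library gave 3221 to 5070 in Herb vs. OVA (lowest without OVA replicate 1) and 894 to 3254 in Herb vs. Saline (lowest without Saline replicate 2). With scaling, it gave 28 (without Herb replicate 1) to 851 (without OVA replicate 2) and 32 (without Saline replicate 2) to 1953. For locus sums of Herb vs. Saline the range was 1333 to 3761, and for scaled locus sums 16 to 1340 in Herb vs. OVA and 300 to 2694 in Herb vs. Saline (lowest without Saline replicate 2, Herb replicate 1 and Saline replicate 2, and 1340 without OVA replicate 2). Locus sums gave 7758, 6107 and 3433 of 11807 as deposited, 5075, 628 and 1617 with quantile normalization and 729 of 11991 in Herb vs. OVA with mRNA share scaling. The cause was not tested.

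Of the 10 genes, of which Hsph1 was under the filter as a gene sum, limma called 5, 2 and 2 in OVA vs. Saline, Herb vs. OVA and Herb vs. Saline. Over all genes the shares were 57.9% lower and 3.28% higher, 0.446% lower and 44.0% higher, and 22.7% lower and 3.32% higher. The counts below show the dependence on the processing and are not read as results about the 10 genes. The count in OVA vs. Saline was 3 with 75th percentile scaling and with quantile normalization. In Herb vs. OVA it was 1 with any other scaling, without a filter, at 5 FPKM, with 2 groups only, as single rows and as scaled locus sums, and 0 to 2 without 1 library. In Herb vs. Saline it was 0 with any other scaling, 1 without a filter, with 2 groups only and as locus sums on either scale, and 0 to 2 without 1 library. Without 1 library the scaled counts were 1 to 3, 0 to 1 and 0 to 1, the locus counts 1 to 4 in Herb vs. OVA and 0 to 1 in Herb vs. Saline, and the scaled locus counts 1 to 5, 0 to 1 and 0 to 2. As locus sums, quantile normalization and mRNA share scaling called 1 and 1 in Herb vs. OVA and 3 and 2 in Herb vs. Saline. With mRNA share scaling 20.2% of all locus sums were higher and 4.6% lower in Herb vs. Saline, so 2 of 10 is near the background. As single rows 5, 1 and 2 were called, where 50.4% of all rows were lower, 32.7% higher and 16.8% lower in these comparisons. OVA vs. Saline gave 2, 3 and 3 with 75th percentile, quantile and mRNA share scaling, and 1 to 3 when scaled without 1 library. Herb vs. OVA gave 0 without a filter or with 2 groups only, 0 to 2 without 1 library and 0 to 1 when also scaled. Herb vs. Saline gave 0 with any scaling or without a filter, 1 with either other pseudocount or 2 groups only, and 0 to 2 without 1 library.

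Replicate numbers of the labels did not pair the samples: deviations of the 9 same-numbered pairs correlated with r from -0.009 to 0.095. With a replicate block, 6603, 4040 and 1342 genes were called, and 5, 2 and 0 of the 10 (0 single rows in Herb vs. Saline). With the block and 75th percentile scaling it was 4408, 2 and 544 genes, and 1 (Ddit3), 0 and 0 of the 10, with the same counts for single rows. Depth limits the low genes: a Ddit3 value stands for about 56 to 107 fragments and an Hspa1a value for 45 to 298.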
